A study of Bos taurus with 2 samples.

Results

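The transcripts described here are those of 10 germ cell genes that act with PIWI proteins: PIWIL1, PIWIL2, PIWIL4, TDRD1, TDRD5, TDRD6, TDRD7, TDRD9, MAEL and DDX4. Every non-control probe that carried one of these names was taken, which gave 15 probes on 16 spots for 9 of the 10 genes, out of 51282 probes for 32429 gene names. No probe carried the name TDRD5, which was reached only through an accession and a description. Another 6 probes, TDRD5's included, were found in that way and are given apart from the named ones.

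Testis RNA was compared between crossbred bulls, which were Holstein Friesian crosses with 50 to 75% exotic inheritance, and Zebu bulls of the Tharparkar breed. By the study's methods, the right testis of 3 bulls per group, all 24 months old, was taken by castration on one side, and equal amounts of RNA were pooled within the group. Each pool was labelled with Cy3 from an oligo dT primer and hybridized to 1 bovine array, and the arrays shared 1 slide and 1 scan. With 1 array of pooled RNA per group there was no replicate check and no test, so no p-value could be had, and precision is limited by the number of arrays.

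PIWI proteins bind piRNAs, the small RNAs of the germline that guide the silencing of transposons and the cleavage of other transcripts. Tudor domain proteins recognise methylated arginines on PIWI proteins and assemble them, with RNA helicases such as DDX4, into granules beside the mitochondria and the nucleus. In the testis these granules change form as spermatogonia become spermatocytes and round spermatids, in which they gather as the chromatoid body.

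The probes are 60 bases long, and the sequences shown are those of the brightest PIWIL1 and PIWIL4 probes and of 2 of the 3 TDRD9 probes. The PIWIL1 and PIWIL4 probes are set together because they read related stretches of paralogous transcripts, and capitals mark the bases that are the same when they are aligned without gaps, 33 of 45 aligned bases or 73.3%. The first TDRD9 probe carries the gene's name on the array and the second carries a TDRD9 accession, and their readings differed widely. The brighter accession probe is not shown, and its difference of 0.60 stood for TDRD9 where accession probes were used.
PIWIL1: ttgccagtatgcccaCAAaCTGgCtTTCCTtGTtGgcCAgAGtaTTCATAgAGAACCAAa
PIWIL4: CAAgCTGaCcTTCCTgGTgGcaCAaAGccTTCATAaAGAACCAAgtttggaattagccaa
TDRD9, by name: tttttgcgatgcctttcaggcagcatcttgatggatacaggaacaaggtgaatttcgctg
TDRD9, by accession: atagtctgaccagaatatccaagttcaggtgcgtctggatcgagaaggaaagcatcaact

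Levels are the log2 of the scanner's processed signal minus the 75th percentile of the array, so that 0 stands for a signal of 1176 in the crossbred and 1233 in the Zebu testis. Each difference is the crossbred level minus the Zebu level of the same probe on this log2 scale. Signals of different probes do not rank genes by abundance. The probe with the highest mean signal stood for its gene, and a difference of 1.5 or more in size was counted as higher or lower. Repeat spots of a probe differed with an SD of 0.33 in the difference, over 5960 probes, and different probes of a gene name with an SD of 0.51, over 8185 gene names. These SDs cover the array and not the spread between bulls. Positions come from the annotation of the array, on build HGSC Btau_3.1.

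Markers of meiotic and later germ cells were found throughout. All 15 round spermatid and 15 late spermatid markers and all 20 spermatocyte markers on the array were detected, meaning well above background on at least 1 array. The 9 named genes were all well above background in both testes. No spot of these genes lay in the marked dark patch of the crossbred array (rows 54 to 99, columns 35 to 46) or in its marked bright patch (columns 50 to 56), and none was marked as an outlier.

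Apart from TDRD9, the PIWI and granule genes differed between the crossbred and the Zebu testis by -1.05 (PIWIL4) to 0.77 (DDX4). Only TDRD9 passed 1.5, with 1 of 9 genes counted as higher, where 7.12% of 24751 detected gene names were higher. None of the 9 was counted as lower, where 2.92% of gene names were. Of 22842 gene names well above background on both arrays, as the 9 were, 1444 were higher and 397 lower. PIWIL2 and PIWIL4 read lower in the crossbred testis, and PIWIL1, TDRD6 and DDX4 read higher, all by more than the SD between spots. PIWIL1 and PIWIL2 lay within the SD of 0.51 between probes of a gene name. Beyond the SD between spots, 4 of the 9 genes were higher, against 30.1% of all gene names, and 2 were lower, against 35%. The median over the 9 genes was 0.23, beside -0.05 over all gene names, and it was 0.17 over the 8 genes without TDRD9. Above 0 were 6 of the 9 genes, where 46.9% of gene names were above 0, and 3 were below, where 53.1% were. In pooled tissue, fewer cells of a type and less RNA per cell cannot be told apart.

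**Figure D1:**
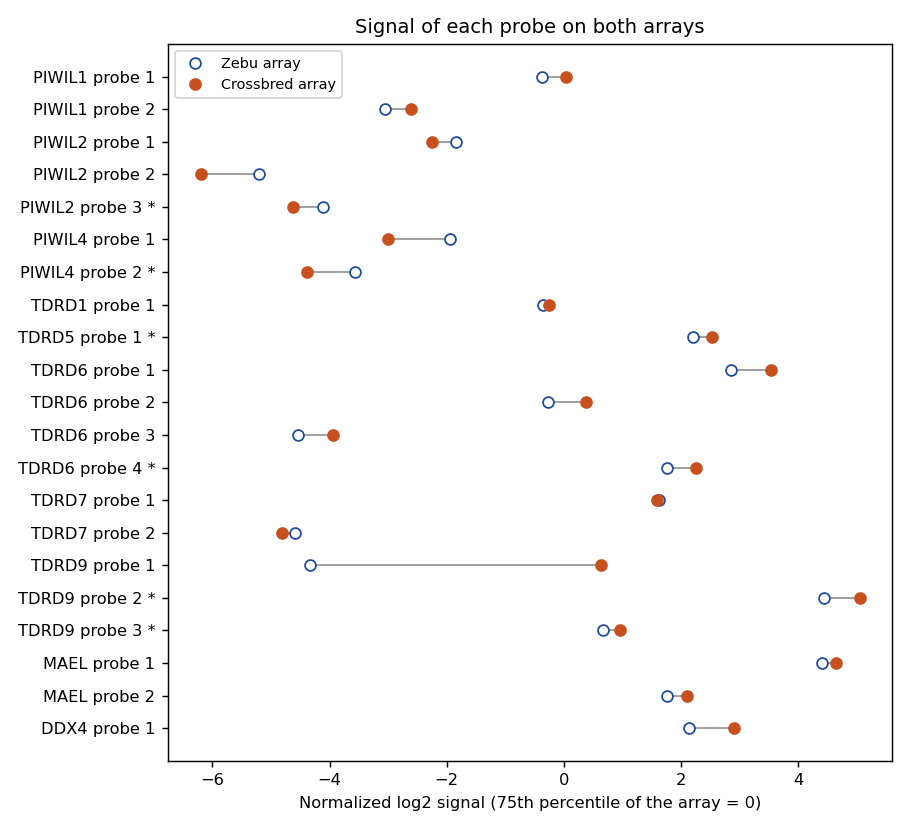
Level of each probe (normalized log2 signal, horizontal axis) on the crossbred array (filled) and the Zebu array (open), with 1 row per probe and an asterisk where the probe was matched by accession or description. Most pairs lie close together, and the named TDRD9 probe spans from -4.34 to 0.64.

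PIWIL1, which loads piRNAs in meiotic spermatocytes and round spermatids, read higher in the crossbred testis. Its probe on chromosome 17 (49308684 to 49308743, plus strand), the PIWIL1 sequence shown above, had a signal of 1202 on the crossbred and 951 on the Zebu array. The levels were 0.03 and -0.37, a difference of 0.41. A second probe at 49283244 to 49283803, a span longer than the probe itself, gave levels of -2.62 and -3.05 and a difference of 0.44. Both PIWIL1 probes thus read higher on the crossbred array, by nearly the same amount, and both exceeded the SD between spots. Both lay within the SD of 0.51 between probes of a gene name.

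PIWIL4, the nuclear PIWI protein that in fetal germ cells directs DNA methylation to transposons, had the most negative difference of the 9 genes. Its probe on chromosome 15 (14087953 to 14088012, minus strand), shown above beside that of PIWIL1, had a signal of 147 on the crossbred and 320 on the Zebu array. The levels were -3.0 and -1.95, a difference of -1.05 or 2.07-fold, and 7.94% of detected gene names lay below it. A probe matched by accession, on 2 spots, gave levels of -4.38 and -3.57 and a difference of -0.81, with the spots at -0.89 and -0.74. Every PIWIL4 spot was dimmer on the crossbred array, while the PIWIL1 probe that shares 73.3% of the aligned bases was brighter there.

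PIWIL2, which cleaves transposon transcripts and is made in germ cells from the fetal gonad onward, also read lower in the crossbred testis. Its probe on chromosome 8 (72738979 to 72739848, plus strand) had a signal of 248 on the crossbred and 344 on the Zebu array. The levels were -2.25 and -1.84, a difference of -0.40. The next probe, at 72704019 to 72704078, was dim on the crossbred array, where it was not well above background, and read at least 1.49-fold higher in the Zebu testis. A probe matched by accession gave levels of -4.63 and -4.11 and a difference of -0.52, with its 2 spots at -0.72 and -0.31. All 3 PIWIL2 probes pointed to the Zebu array as the brighter. A probe described as piwi-like 3, PIWIL3, was not well above background on either array.

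Among the Tudor genes, TDRD6, a scaffold of the chromatoid body, was read by the most probes, 4 in number, and all were higher in the crossbred testis. Its brightest probe on chromosome 23 (20647958 to 20648017, plus strand) had signals of 13719 on the crossbred and 8944 on the Zebu array. The levels were 3.54 and 2.86, a difference of 0.69, with its 2 spots at 0.66 and 0.71. The remaining 3 probes read nearly the same difference. A probe at 20647903 to 20647962, which overlaps the first by 5 bases, differed by 0.64. One at 20642096 to 20642155, with levels of -3.95 and -4.55, differed by 0.60. A probe matched by its description differed by 0.50, with its spots at 0.44 and 0.56.

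TDRD1, a partner of PIWIL2 in the granules between mitochondria, read nearly the same on both arrays. Its single probe on chromosome 26 (35185215 to 35185355) had signals of 989 and 969 and levels of -0.25 and -0.35 on the crossbred and Zebu arrays, a difference of 0.10, within the SD between spots. The 18 spots nearest to it had a median difference of -0.88, and of its 6 adjacent spots 2 were lower and 1 was higher by 1.5 or more. The part of that region in the TDRD1 value was not tested, and under normexp background correction the difference was -0.08.

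TDRD7, which remodels the chromatoid body and is also known for its part in the eye lens, did not differ beyond the SD between spots on either probe. The brighter probe on chromosome 8 (65522182 to 65522241) had levels of 1.59 in the crossbred and 1.62 in the Zebu testis, a difference of -0.03, which was 0.03 under normexp. The dimmer one, at 65482740 to 65482799, had levels of -4.81 and -4.59 and a difference of -0.22. TDRD5, needed for the piRNAs of meiosis and for the chromatoid body, was read from its one probe on chromosome 16 (58510878 to 58510937). Its levels were 2.53 in the crossbred and 2.20 in the Zebu testis, a difference of 0.34, about the size of the SD between spots.

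TDRD9, an RNA helicase with a Tudor domain that works with the nuclear PIWI protein in silencing transposons, gave readings that disagreed between probes. The named probe on chromosome 21 (68846663 to 68846796, plus strand) has 1 spot. Its signal was 1833 on the crossbred and 61.0 on the Zebu array, the levels were 0.64 and -4.34, and the difference was 4.98 or 31.5-fold, above 99.8% of detected gene names. The 2 probes with the TDRD9 accession read far smaller differences. One had signals of 38933 and 26914, levels of 5.05 and 4.45, and a difference of 0.60. The other, shown above, had levels of 0.96 and 0.66 and a difference of 0.30, with its 2 spots at 0.17 and 0.43. All 3 probes were brighter on the crossbred array, but with the accession probes TDRD9 lay within the range of the other genes and no gene was counted as higher.

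The spot of the named TDRD9 probe lay in a small group of spots that were bright on the crossbred array. Of its 6 adjacent spots, 5 were higher by 1.5 or more, against 6.37% of 47209 spots over the whole array. Of the 18 nearest spots, 17 had a value, 9 of these were higher by 1.5 or more, and their median difference was 1.70. Only 3.76% of all spots had at least 2 adjacent spots that high. The group lies outside the marked patches, and its part in the TDRD9 value was not tested. Around the other probes with a member's name, the median of the 18 nearest spots lay between -0.88 and 0.17. For the probes matched by accession, it reached 0.51 around a PIWIL2 spot and 0.53 around a PIWIL4 spot.

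**Figure D2:**
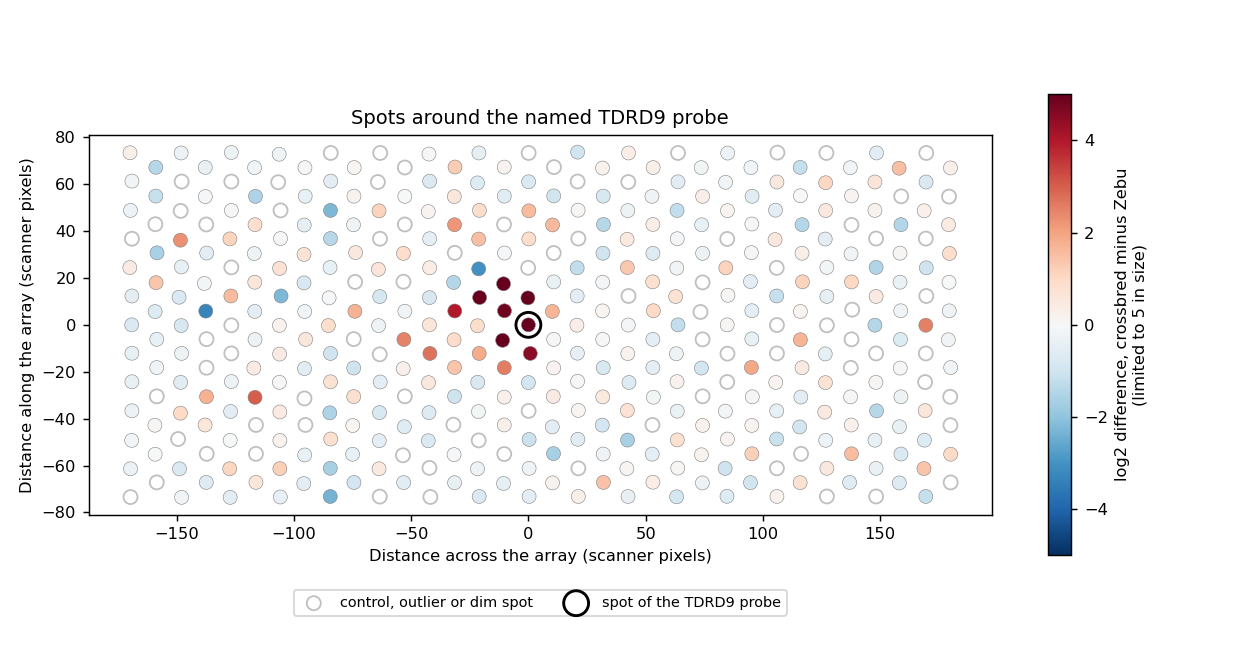
Spots around the named TDRD9 probe, placed by their distance from it in scanner pixels across and along the array and coloured by the log2 difference, crossbred minus Zebu (colour limited to 5 in size), with control, outlier and dim spots drawn without colour. Several dark red spots lie next to the circled TDRD9 spot, and 5 of its 6 adjacent spots were higher by 1.5 or more.

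DDX4, the helicase known as VASA that marks germ cells, read higher in the crossbred testis. Its single probe on chromosome 20 (24965810 to 24965869, minus strand) had signals of 8791 on the crossbred and 5419 on the Zebu array. The levels were 2.90 and 2.14, a difference of 0.77 or 1.70-fold, above 83.2% of detected gene names. MAEL, which takes part in transposon silencing and in the making of piRNAs, differed less. Its brighter probe on chromosome 3 (2419664 to 2419723, minus strand) had signals of 29492 and 26311 and levels of 4.65 and 4.42, a difference of 0.23. The other, at 2423951 to 2424744, had levels of 2.10 and 1.76 and a difference of 0.34. Both MAEL probes were higher on the crossbred array, the first within and the second just beyond the SD between spots.

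With the named TDRD9 probe left aside, over the 7 genes with more than 1 probe well above background on both arrays, the SD between probes was 0.12 and the largest range within a gene was 0.30. Of all 21 probes, PIWIL3 apart, 14 were higher on the crossbred array and 7 lower, and 20 were well above background on both arrays. Over all gene names, 46.9% were above 0 and 53.1% below, and no share over all probes was computed. Probes of the same gene are not separate genes, and of the 14, TDRD6 gave 4 and TDRD9 gave 3. By role, the 3 PIWI genes ran from -1.05 to 0.41 with a median of -0.40, and MAEL and DDX4 from 0.23 to 0.77. The 4 named Tudor genes ran from -0.03 to 4.98 with a median of 0.39, in which 4.98 is the named TDRD9 probe. The other named Tudor genes were TDRD7 (-0.03), TDRD1 (0.10) and TDRD6 (0.69). With TDRD9 and TDRD5 read from their accession probes, 7 of 10 genes were above 0, where 46.9% of gene names were. The median was 0.28.

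**Figure D3:**
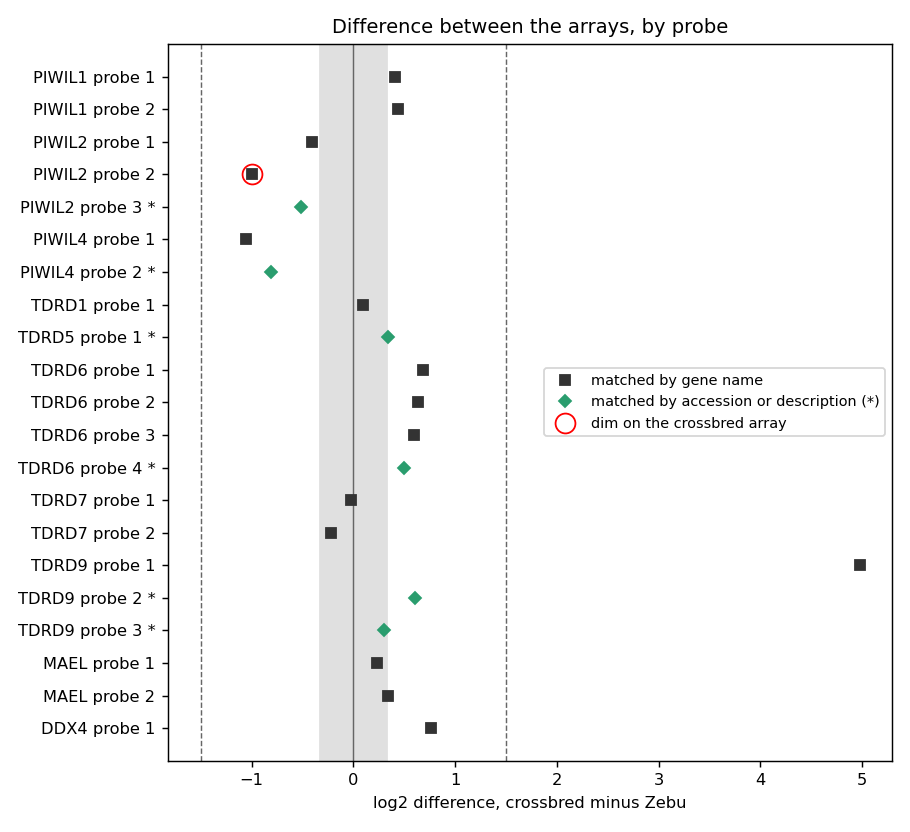
Difference of each probe between the arrays (log2, crossbred minus Zebu), with squares for probes matched by gene name, diamonds for those matched by accession or description, a red ring where the crossbred array was not well above background, a grey band for the SD between spots of 0.33 and dashed lines at 1.5. The TDRD9 probes lie farthest apart, at 4.98, 0.60 and 0.30, and the ringed PIWIL2 probe is drawn at its measured difference of -0.99, though the dim array gives only a bound.

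The pathway around these genes was read from 52 further genes of piRNA making, granules, Argonaute silencing and germ cell translation. By name, synonym or accession, 40 of them were matched on the array, and all 40 were detected. PIWIL3 was also listed, but its probe, found through its description and dim on both arrays, was not counted among the 40. Of the 40, 2 were higher by 1.5 or more (AGO1 and GTSF1L), where 7.12% of all gene names were, and 1 was lower (AGO3), where 2.92% were. Beyond the SD between spots, 14 were higher, where 30.1% of all gene names were, and 13 lower, where 35% were. The median was -0.09, and 18 genes (45%) were above 0, a share near the 46.9% over all gene names.

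Of the other Tudor genes, TDRD12, which serves in the making of secondary piRNAs, had levels of -3.37 in the crossbred and -4.13 in the Zebu testis. The difference was 0.76, and the second TDRD12 probe was not well above background on either array. TDRD10 had -1.89 and -0.97, a difference of -0.92. TDRD3, TDRKH, RNF17 and STK31 lay within the SD between spots, at -0.19, 0.26, 0.15 and -0.01. For TDRKH, which anchors PIWI proteins to mitochondria, the direction differed by probe, since its other 2 probes read -0.40 each. TDRD15 was not matched. AKAP1 and SND1, which also carry Tudor domains, read lower in the crossbred testis beyond the SD between spots, AKAP1 by a difference of -0.70 and SND1 by -0.68, with its second probe at -0.77.

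Proteins that make and trim piRNAs read on both sides of 0. PLD6, the mitochondrial nuclease that cuts piRNA precursors, had levels of -0.10 in the crossbred and -1.04 in the Zebu testis, a difference of 0.94. MOV10L1, the helicase that feeds it precursor RNA, differed by -0.27, and ASZ1, a mitochondrial partner of the same granules, by -0.39, with its second probe at -0.30. HENMT1, which methylates the ends of piRNAs, differed by -0.10 and -0.24 on its 2 probes. MYBL1, the transcription factor of meiotic piRNA genes, had levels of -3.82 and -4.41, a difference of 0.59. Of the RNA-binding DAZL, the 2 probes read -0.47 and -0.23.

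GTSF1, a zinc finger partner of PIWI proteins in transposon silencing, had levels of 4.51 in the crossbred and 3.45 in the Zebu testis, a difference of 1.05. Its relative GTSF1L had levels of 4.22 and 2.0, a difference of 2.21, with its spot in the dark patch of the crossbred array. AGO1, an Argonaute protein of the microRNA pathway, had levels of -1.42 and -3.98 on its 1 probe, a difference of 2.56, and none of its adjacent spots was past 1.5. AGO3 had levels of -4.73 and -2.95, a difference of -1.78. The AGO3 spot lay in the dark patch, 4 of its 6 adjacent spots were lower by 1.5 or more, and the part of the patch in its value was not tested.

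**Figure D4:**
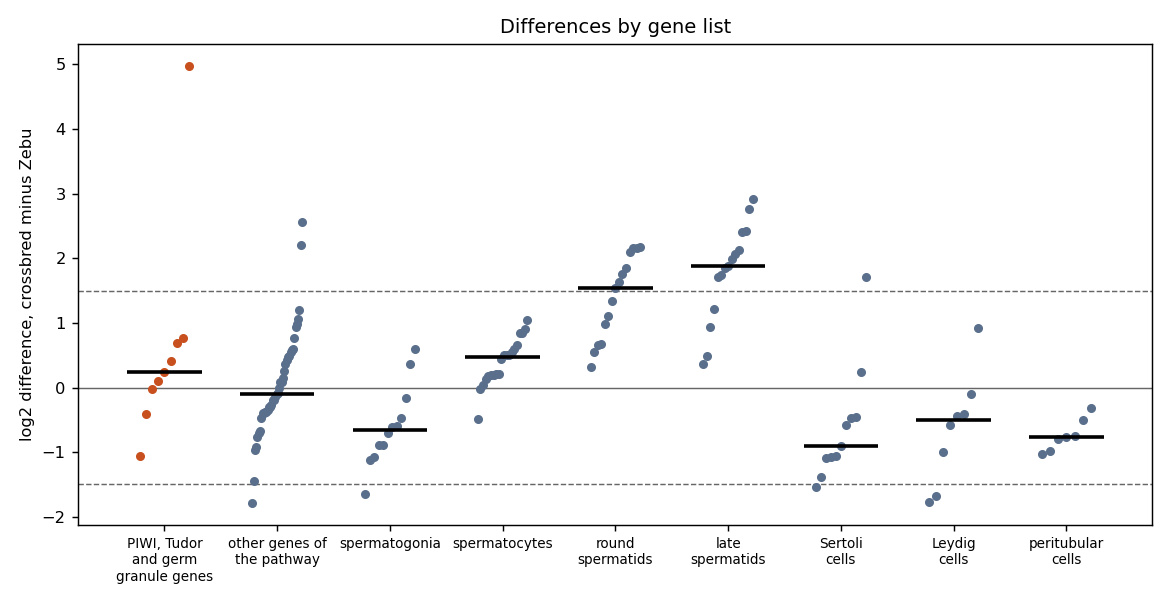
Differences of single genes (log2, crossbred minus Zebu) in each gene list, with 1 point per detected gene, a bar at the median and dashed lines at 1.5. The PIWI, Tudor and germ granule genes have a median of 0.23, between those of spermatogonia (-0.66) and spermatocytes (0.47) and below those of round (1.54) and late (1.88) spermatids.

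Markers of germ cell stages differed between the same arrays. Over all gene names, 7.12% were higher and 2.92% lower by 1.5 or more. By sign alone, 46.9% of gene names were above 0 and 53.1% below. Of the spermatogonial markers, 12 of 13 on the array were detected, LIN28A was not, and 1 of the 12 was lower by 1.5 or more (SALL4, -1.65). Of the 12, 10 were below 0, while STRA8 (0.59) and NANOS3 (0.36) were above 0. The median over the 12 was -0.66. Their summed level, on a linear scale with the 75th percentile at 1, was 39.6 on the crossbred and 56.8 on the Zebu array. None of the 20 spermatocyte markers passed 1.5, 18 were above 0, the median was 0.47 and the sums were 209 and 156. Of the 15 round spermatid markers, 8 passed 1.5 upward, their median was 1.54 and the sums were 112 and 46.8. Of the 15 late spermatid markers, 11 were higher, with a median of 1.88 and sums of 1036 and 442. Several spermatid markers, and SALL4, are also genes that the study picked from these arrays, so that their direction is not independent evidence. DAZL and NANOS3 are in both the spermatogonial and the pathway list.

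Markers of Sertoli, Leydig and peritubular cells mostly read lower in the crossbred testis. By 1.5 or more, 2.92% of all gene names were lower and 7.12% higher. The median was -0.90 over 11 detected Sertoli cell markers of 14 on the array, with 1 (DHH) lower by 1.5 or more and sums of 165 on the crossbred and 258 on the Zebu array. GATA1 was counted as higher by its measured difference of 1.70, though it was not well above background in the Zebu testis. By its bound it read at least 1.5-fold higher in the crossbred. The median was -0.51 over 8 Leydig cell markers, with 2 lower and sums of 89.6 and 134. Over 7 peritubular and smooth muscle markers it was -0.77, with none past 1.5 and sums of 37.0 and 61.5. DHH and the 2 lower Leydig markers, CYP17A1 and HSD3B1, are also genes that the study picked from these arrays. Their direction is thus not independent evidence. The summed level of the 9 PIWI and granule genes, in which the probes of MAEL, TDRD6 and DDX4 were the brightest, was 51.0 on the crossbred and 38.2 on the Zebu array. The part of the makeup of the tissue in the differences of PIWIL1, PIWIL2, PIWIL4, TDRD6 and DDX4 was not tested.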

How the data were processed

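Pooled testis RNA of each group was measured on 1 Agilent bovine array with 1 colour. For each spot the authors deposited the processed signal of Agilent Feature Extraction 11.5.1.1, an intensity which, per the file headers, had its background subtracted and its spatial trend removed, with no scaling between arrays. They also deposited log2 values made with GeneSpring GX 12.6 by subtracting the 75th percentile of the array, which were used as an alternative. These lay within 0.01 of the values computed here for 98.8% of 51282 probes in the crossbred and 98.9% in the Zebu column. Among the remaining probes, the largest gap was 5.93 in the crossbred and 10.6 in the Zebu column. The column medians were -3.00 and -3.01, so that the scale and centring of the authors' values are known. Detrending and background subtraction act most on dim spots.

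Of 61657 non-control spots, 13 outlier spots were left out and none was saturated, and 72.0% on the crossbred and 74.3% on the Zebu array were well above background. Spots of the same probe were averaged as log2 of the processed signal, and each array's 75th percentile over probes was subtracted. Where a probe was dim on 1 array, its fold was bounded from the higher of the dim probe's own value and the lowest level well above background. A gene counted as detected where at least 1 array read its probe well above background. The 6 adjacent and 18 nearest spots were found from the spot positions.

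The members, the pathway list and the marker lists of spermatogonia, spermatocytes, round and late spermatids, Sertoli, Leydig, peritubular, endothelial, macrophage, red blood and oocyte cells were chosen with earlier results of these data known. Named were all members, PIWIL3, the genes TDRD3, TDRD10, TDRD12, TDRD15, TDRKH, RNF17 and STK31 and 7 further genes of the pathway whatever their value, and any pathway gene past 1.5 or in a patch. AKAP1, SND1, and the markers named from the cell type lists were named after their values were seen. Some items are not reported here. Accessions were matched through a RefSeq gene table. The alternatives were other scalings, normexp (offset 50), other probe rules, filters and thresholds, and spots left out by place. The steps were tested on simulated data. Python 3.11.15, numpy 2.4.6, pandas 2.3.3, scipy 1.17.1, R 4.3.3 and limma 3.58.1 were used. A planned search of promoters was not run, since no promoter sequences were used here.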

Additional observations from a re-analysis of the deposited data

How the results depend on the processing

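No paired analysis was possible because each group has 1 array. For the same reason no replicate could be left out. The median difference of the members ranged from 0.10 to 0.29 over 15 alternatives, and that of the pathway genes from -0.13 to -0.01 over 14. The members were 10 genes with the accession probes added, and fewer than 9 where spots were left out for their adjacent spots. The count of members that were higher (1) became 3 at a linear fold of 1.5, with TDRD6 and DDX4 added, and 0 in the 3 alternatives chosen after seeing the data. These added the probes matched by accession or description, left out spots with at least 2 bright or 2 dark adjacent spots whatever their own value, or left out only those of them that were past 1.5 the same way, a rule that by construction drops called spots. The count that were lower (0) became 1, PIWIL4, both at a threshold of 1 and at a linear fold of 1.5. Pathway genes that were higher (2) became 1 without both patches, 4 at a threshold of 1 and 9 at a linear fold of 1.5. Pathway genes that were lower (1) became 0 under normexp, 0 without both patches, 0 under either rule on adjacent spots, 2 at a threshold of 1 and 7 at a linear fold of 1.5. Counts over all gene names rose too. Of 24751 gene names, 3173 were higher and 2196 lower at a threshold of 1, and 5290 and 5504 at a linear fold of 1.5. TDRD9 differed by 3.90 under normexp and by 0.60 with the accession probes, and had no value under either rule on adjacent spots, as TDRD1 had none under the first. PIWIL1 (0.38 to 0.42), PIWIL2 (-0.49 to -0.37), PIWIL4 (-1.08 to -0.84), TDRD6 (0.57 to 0.69), DDX4 (0.68 to 0.77) and MAEL (0.04 to 0.29) kept their direction in the alternatives run. TDRD1 and TDRD7 each turned sign under normexp. Of all gene names past 1.5, 70.9% were higher, and 85.9% under normexp. Dim probes limit PIWIL2 most, with 1 of its probes dim in the crossbred testis.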

Other observations

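Markers of other cell types that the tissue could hold were read beside the germ cell lists. The median difference was 0.02 over 7 endothelial markers, none of which passed 1.5. It was 0.10 over 6 macrophage markers, of which AIF1 was higher (1.95) and MSR1 lower (-1.55). By 1.5 or more, 7.12% of all gene names were higher and 2.92% lower. Of 3 red blood cell markers on the array, HBB and ALAS2 were not detected, and HBA, a haemoglobin chain, had levels of -0.93 in the crossbred and 1.22 in the Zebu testis, which differ by -2.15. Over 6 detected oocyte markers of 8 on the array, the median was 0.25 and none passed 1.5, and BMP15 and NOBOX were not detected.

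In the pathway, KIF17, a kinesin of round spermatids, had 4 probes, all higher on the crossbred array by 0.79 to 1.28. MOV10, an RNA helicase related to MOV10L1, had 4 probes, all lower by differences of -1.15 to -0.50. Of the other pathway genes with at least 4 probes, DDX6 had 5, all lower by differences of -1.26 to -0.25, and PABPC1 had 4, from -0.04 to 0.10. DNMT3L, the cofactor of DNA methylation that acts with PIWIL4 in fetal germ cells, had levels of -4.11 and -2.67 on its 1 probe, a difference of -1.44. These genes were picked after their values were seen.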
